A study of Sus scrofa with 5 samples.

Results

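The barcodes described here are the ones that a cell threshold leaves out of the single-cell data of porcine blastoids. Blastoids are blastocyst-like structures built from stem cells, here from porcine embryonic stem cells (pESCs) of parthenogenetic origin that were kept on mitomycin-treated mouse embryonic fibroblasts and brought to blastoids in 3D culture ending in iBlastoid medium. Day 6 blastoids with a cavity were picked by hand, dissociated with trypsin and run on the 10x Genomics Chromium system in 2 libraries of the same condition. In droplet sequencing every droplet carries a barcode, and each captured RNA molecule is counted as a unique molecular identifier (UMI). Low-RNA barcodes were chosen by their measured totals, at least 1000 UMIs and 200 genes but fewer than 11223 UMIs in library 1 or 9805 UMIs in library 2, the threshold at which the remaining barcodes are taken as cells. The rule was met by 3107 barcodes in library 1 and 3659 in library 2, which makes 6766 of 6807517 barcodes in all and 30.3% of the barcodes with at least 1000 UMIs. They were compared within each library with the 7369 and 8175 barcodes above the threshold, called cells here, and with 118122 and 165131 empty droplets of 10 to 100 UMIs.

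A cell whose membrane has failed loses its cytosolic mRNA first, so that the RNA inside mitochondria or the nucleus makes up a larger share of what is left. The nucleus holds unspliced transcripts, and long genes, which are mostly intron, are prominent among them. Messages of ribosomal proteins are short, abundant and cytosolic, and free RNA in the suspension enters every droplet. Barcodes of intermediate size can therefore hold small cells, damaged cells, nuclei, fragments of cells or much free RNA, and the UMI total alone does not tell these apart.

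The low-RNA barcodes held 4.15% and 4.26% of all UMIs of the libraries, against 87.8% and 87.7% in cells and 0.567% and 0.776% in empty droplets. Their totals chose them and are given as a description. The median barcode had 2986 UMIs and 1410 genes in library 1 and 2759 UMIs and 1309 genes in library 2, against 29728 and 27588 UMIs and 6337 and 6137 genes in cells. When every barcode was thinned to 1000 UMIs, the median number of genes was 605 and 604 in low-RNA barcodes and 681 and 682 in cells. Only 1 and 2 barcodes in the UMI range were left out for having fewer than 200 genes. Of the barcode sequences, 33 were a low-RNA barcode or a cell in both libraries, and the 3 counts of genes changed at least 2-fold were 610, 966 and 178 without them and 619, 954 and 181 with them, in the order of the comparisons with cells, with empty droplets and with both. Nothing in the labels says that the 2 libraries came from separate cultures, so the p-values measure the spread between these libraries only.

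The rule cuts a range of UMI totals, so the barcodes on either side of each limit were compared. The 100 low-RNA barcodes just under the upper limit (at least 10181 and 9020 UMIs) had a median mitochondrial share of 0.831% and 0.682%, while the 100 cells just over it had 0.529% and 0.489%. Genes spanning at least 100 kb gave 14.2% and 13.2% of the UMIs just under the limit and 10.8% and 10.9% just over it. At the lower limit the median mitochondrial share was 0.884% and 0.966% in the 100 low-RNA barcodes just inside and 1.06% and 0.711% in the 100 barcodes just outside.

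Mitochondrially encoded mRNA took a larger share of the UMIs in low-RNA barcodes than in cells. Summed over all low-RNA barcodes, the 13 protein-coding genes of the mitochondrial genome gave 2.97% of UMIs in library 1 and 1.92% in library 2, with a mean of 2.45% ± 0.744 (SD, n = 2 libraries). The same share was 0.613% and 0.590% in cells and 1.38% and 1.13% in empty droplets, so as sums low-RNA barcodes lay above both other classes in each library. With 2 libraries an exact permutation test cannot reach a small p, and none is given for this share. The barcodes differed widely among themselves. The median low-RNA barcode had 0.754% and 0.519%, on either side of the cells' medians of 0.587% and 0.572% and below the summed empty droplets. The 95th percentile was 16.6% and 11.3% against 1.39% and 1.32% in cells. A limit set at the median of the cells plus 5 median absolute deviations, 1.83% and 1.71%, was exceeded by 1050 (33.8%) and 905 (24.7%) low-RNA barcodes and by 181 (2.46%) and 202 (2.47%) cells. More than 10% mitochondrial UMIs were found in 326 and 216 low-RNA barcodes and in 3 and 0 cells. At the other end, 15.5% and 18.7% of low-RNA barcodes had less than 0.147% and 0.143%, a level that 14.3% and 13.1% of cells also fell below. In sums over barcodes the share was highest for the smallest, 4.69% and 2.67% between 1000 and 2000 UMIs, and lowest for the largest, 1.74% and 1.15% from 7000 UMIs. The 95th percentile fell in the same order, from 27.2% and 15.0% in the smallest to 6.25% and 4.63% in the largest. The median and the share of barcodes over the limit did not follow it throughout. The median was 0.807% and 0.670% in the smallest and 0.843% and 0.381% in the largest barcodes, and the limit was exceeded by 26.0% and 20.4% of the smallest against 42.9% and 31.3% of those between 4000 and 7000 UMIs.

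**Figure D1:**
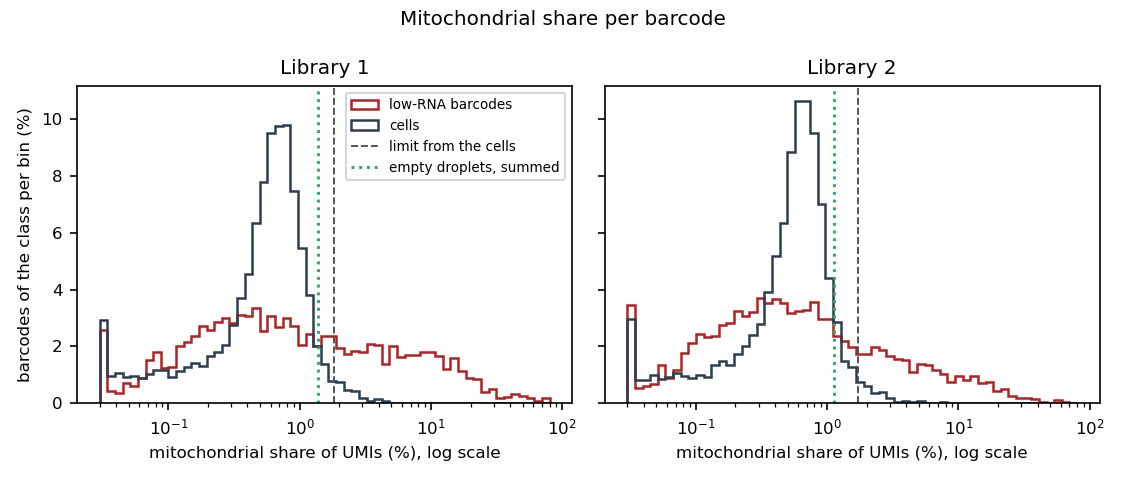
Mitochondrial share of UMIs per barcode on a log axis, as percent of the low-RNA barcodes (red) and of the cells (dark blue) in each bin, with values of 0.03% or less in the lowest bin. The dashed line is the limit set from the cells (1.83% and 1.71%) and the dotted line the share in the summed empty droplets. Both classes reach down to similar shares, with a 5th percentile of 0.0612% and 0.0491% in low-RNA barcodes and 0.0450% and 0.0474% in cells. Only the low-RNA barcodes spread in large number well past the limit.

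The low-RNA barcodes fell into kinds that differ from cells in opposite directions, and these kinds were found after the values were seen. The share of UMIs from long genes, the 3464 genes that span at least 100 kb, ran from 6.95% to 22.7% between the 5th and the 95th percentile of cells in library 1 and from 6.57% to 21.5% in library 2. Of the low-RNA barcodes, 1644 (52.9%) and 2101 (57.4%) lay below this range, 675 (21.7%) and 943 (25.8%) within it and 788 (25.4%) and 615 (16.8%) above it, and in that order 44, 159 and 129 barcodes of library 1 and 74, 201 and 110 of library 2 lay within 10% of a limit. The group below had a median of 3.59% and 3.51% long-gene UMIs, 30.7% and 30.8% of UMIs from ribosomal protein genes and 0.296% and 0.270% mitochondrial UMIs. It was thus poor in long-gene and mitochondrial RNA and rich in ribosomal protein mRNA, where the median cell had 23.1% and 22.9%. The group above had 31.4% and 29.2% long-gene UMIs, 6.84% and 8.99% from ribosomal protein genes and 3.99% and 3.0% from mitochondria. The limit on mitochondrial share was exceeded by 75.3% and 70.4% of the group above and by 5.66% and 3.95% of the group below. Barcodes in the group above were also larger, with a median of 4140 and 3797 UMIs against 2373 and 2446 below. At equal depth of 1000 UMIs they showed more genes, 779 and 784 against 561 and 565. Across low-RNA barcodes the long-gene share correlated with the ribosomal protein share at Spearman −0.87 and −0.85 and with the mitochondrial share at 0.66 and 0.62 (3107 and 3659 barcodes). These shares come from the same UMIs of each barcode and must sum to the whole, so the correlations are a description.

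**Figure D2:**
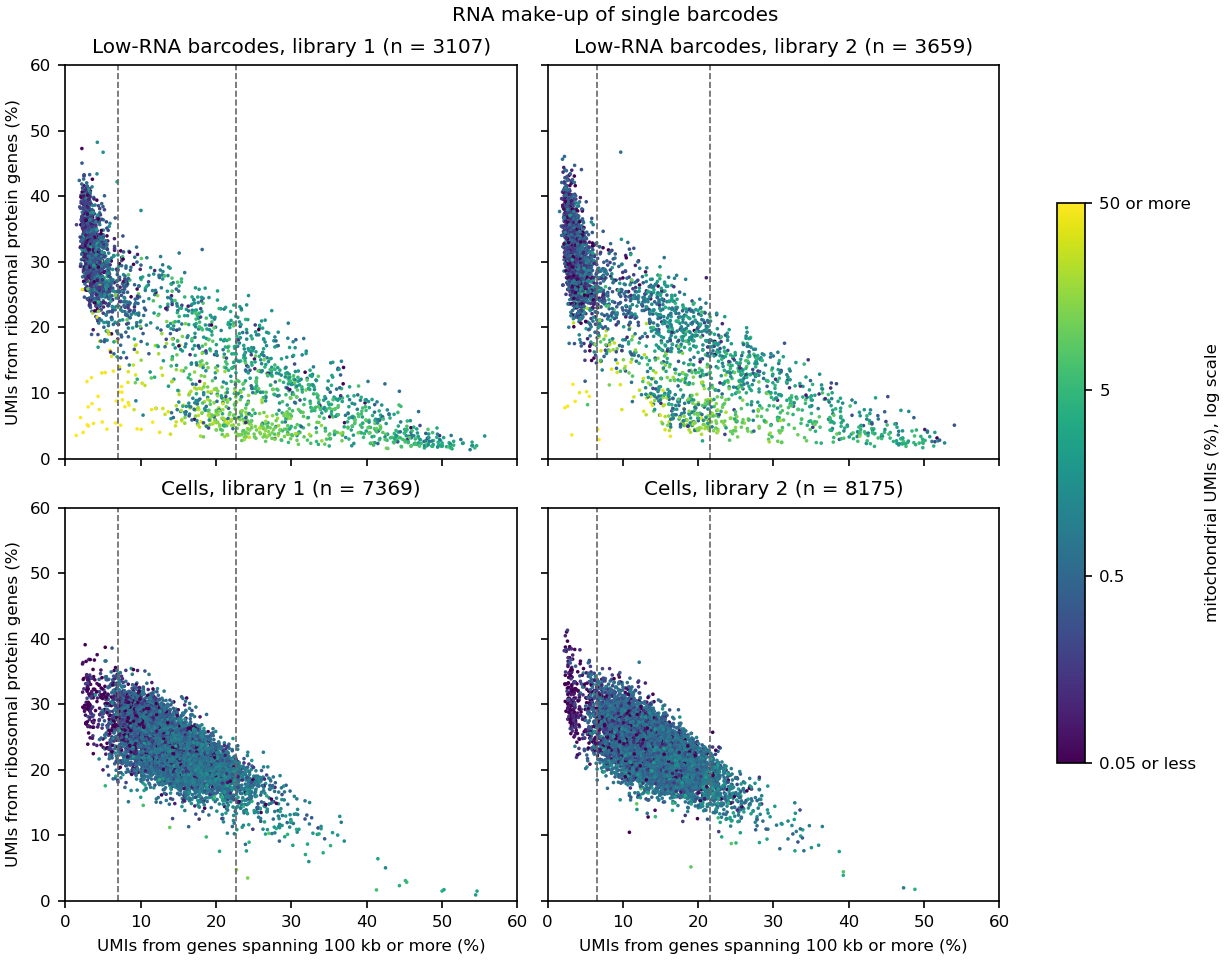
Each point is a barcode, placed by the percent of its UMIs from genes spanning 100 kb or more (x) and from ribosomal protein genes (y), and coloured by its mitochondrial share on a log scale. Dashed lines mark the 5th and 95th percentile of long-gene share in the cells of that library. Cells cluster in the middle, while low-RNA barcodes spread from a ribosomal-rich end with little mitochondrial RNA to a long-gene end with much of it.

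Clustering of the low-RNA barcodes on their own gave 12 clusters, which are described by their leading genes with no test, since the clusters were made from the same genes. Among the clusters with few long-gene UMIs (medians of 3.42% to 3.86% in either library), cluster 0 (1703 barcodes) was led by SOD3, an extracellular superoxide dismutase, and WFDC2, a secreted protein of epithelia. Cluster 3 (587) was neural-like, with CRABP1, LHX2, SIX3 and FEZF1 of the neural list among its 10 leading genes. CRABP1, a retinoic acid-binding protein, stood at 9131 and 8264 CPM (UMIs per 1000000 UMIs of the cluster and library) there and at 118 and 178 CPM in cluster 0. Cluster 4 (547) was led by ERAS and POU5F1, a core pluripotency factor, which stood at 403 and 504 CPM there. Cluster 5 (487) had the sarcomere genes MYL7, MYL4, ACTC1, TNNT2 and TNNI1 in the lead and is called cardiac-like for these leading genes alone. MYL7 stood at 781 and 1193 CPM there. Over both libraries its cardiac list summed to 2216 CPM, against 342 CPM in cluster 7, the next highest. Its mesenchyme list summed to 4731 CPM, so the name does not make its barcodes cardiac cells. Cluster 6 (447) was led by the defensin DEFB1 and FXYD4, and cluster 10 (109) by the interferon-response gene ISG15 at 2689 and 3109 CPM. In these 6 clusters the median ribosomal protein share was 27.5% to 33.0%, and the median mitochondrial share was 0.187% to 0.40%, in either library.

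Another set of 3 clusters was rich in long-gene UMIs, with medians of 21.9% to 30.3%, and in mitochondrial UMIs, with medians of 1.14% to 4.19%. Cluster 1 (1181) was led by CSMD1 and TENM2, very long genes of neural cell surface proteins, and held NTRK2, the neurotrophin receptor TrkB, at 1324 and 1163 CPM. Cluster 7 (340) was led by the calcium channel gene CACNA1D at 417 and 323 CPM, and its leading genes also included COL3A1 at 1834 and 1778 CPM and the cardiac transcription factor TBX20. Cluster 8 (309) was led by LOC100514051 and the cadherin CDH6 and held CRABP1 at 2123 and 1037 CPM. By genes shorter than 20 kb alone, cluster 7 came nearest to the cells led by COL3A1 and DCN in 96.5% of its barcodes, the same cells that 89.1% of the cardiac-like cluster 5 came nearest to. The cells had a cardiac cluster of their own, 140 cells led by MYL4, ACTC1 and TNNT2, to which 20 and 25 low-RNA barcodes (0.644% and 0.683%) came nearest. In the same way 46.6% of cluster 8 and 78.5% of the neural-like cluster 3 came nearest to the cells led by CRABP1. Barcodes nearest to the cells led by COL3A1 and DCN thus stood at the ribosomal-rich and at the long-gene end of the low-RNA barcodes. For the cells led by CRABP1 this is not shown. The long-gene share of the 46.6% of cluster 8 nearest to them was not computed apart. Cluster 11 (100) was sensory-neuron-like, with THSD7B, NEUROG1, NFASC, NEUROD1 and EBF1 in the lead. It held 25 barcodes of library 1 and 75 of library 2, with a long-gene median of 4.48% and 15.9%, so its make-up differed between the libraries.

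**Figure D3:**
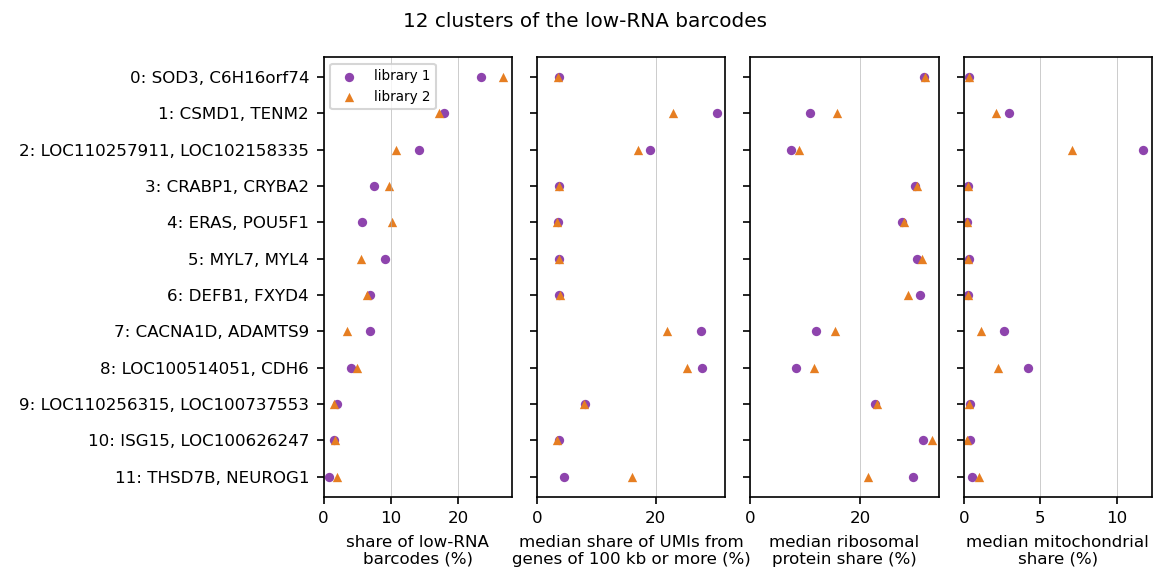
The 12 clusters of low-RNA barcodes with their 2 leading genes, by library (circles for library 1, triangles for library 2). From left to right the panels give the share of low-RNA barcodes and the medians over barcodes of the long-gene, ribosomal protein and mitochondrial shares of UMIs, and cluster 2 stands out at a mitochondrial median of 11.7% and 7.04%.

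Cluster 2 (442 and 392 barcodes, 14.2% and 10.7% of the low-RNA barcodes) had the highest mitochondrial shares of the 12, a median of 11.7% in library 1 and 7.04% in library 2. It held 251 of the 326 and 163 of the 216 low-RNA barcodes with more than 10% mitochondrial UMIs. Its ribosomal protein share was low, 7.45% and 8.80%, while its long-gene share, 19.1% and 17.0%, lay within the range of cells. Ribosomal RNA was high. RN18S, the 18S ribosomal RNA, stood at 12425 and 13957 CPM in cluster 2, at 640 and 546 CPM in cells and from 427 and 378 CPM in cluster 4 to 3918 and 8260 CPM in cluster 9 over the other clusters, with cluster 1 at 3380 and 2011 CPM and cluster 6 at 3350 and 2567 CPM. LOC102158335 and LOC110257911, long non-coding RNAs of the annotation, stood at 7421 and 9982 CPM and at 3245 and 4382 CPM in cluster 2. Among mRNAs, TEX14, a gene of germ cell intercellular bridges, stood at 2253 and 2235 CPM against 512 and 341 CPM in cluster 8, the next highest, and 247 and 165 CPM in cluster 1, the long-gene cluster with the most barcodes. Single regulatory and stress genes, chosen after their values were seen, also differed between clusters. KLF5, a zinc-finger factor of trophectoderm and epithelia, stood at 360 and 295 CPM against 82.5 and 62.7 CPM in cluster 8, the next highest, and 5.05 and 1.5 CPM in cluster 0. TOB1, an antiproliferative gene, stood at 462 and 417 CPM against 150 and 95.5 CPM in cluster 8 and 11.1 and 6.36 CPM in cluster 0. TIMP3, an inhibitor of matrix metalloproteinases, stood at 792 and 597 CPM against 283 and 197 CPM in cluster 7, the next highest, and 3.03 and 4.49 CPM in cluster 0. JUN stood at 943 and 577 CPM against 219 and 218 CPM in cluster 1, but also at 724 and 557 CPM in cluster 7 and at 737 and 541 CPM in cluster 9. DDIT3, the stress factor CHOP, stood at 247 and 278 CPM against 103 and 67.0 CPM in cluster 8 and 99.9 and 81.6 CPM in cluster 7. The inducible chaperone HSP70.2 stood at 121 and 170 CPM and the related HSPA6 at 28.5 and 34.7 CPM, against 4.06 and 4.47 CPM and 0.677 and 0.344 CPM in cluster 1. MEG3, a nuclear long non-coding RNA, stood at 198 and 204 CPM against 28.4 and 30.3 CPM in cluster 1 and 274 and 202 CPM in cluster 8. As whole lists, stress genes were not highest in cluster 2. The heat shock list summed over both libraries to 4433 CPM there, 7241 CPM in cluster 0 and 8881 CPM in cluster 9. The integrated and endoplasmic reticulum stress list summed to 2256 CPM there, 2942 CPM in cluster 7 and 3267 CPM in cluster 9, and the immediate early list to 4042 CPM there and 4449 CPM in cluster 9.

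Between low-RNA barcodes and cells, UMIs were summed per library and class and the 6 sums were fitted together in edgeR (quasi-likelihood test, adjusted by Benjamini-Hochberg over 15943 genes). At an adjusted p under 0.05, 1058 genes (6.64% of those tested) were higher in low-RNA barcodes and 541 (3.39%) lower. With the library as a block 2388 (15%) were higher and 1913 (12%) lower, 751 and 24 of them by at least 2-fold. With 1 of the 6 sums left out, the rises ran from 502 to 1583 and the falls from 101 to 1770, both lowest without cells of library 2 and highest without low-RNA barcodes of library 2. The rises were larger than the falls, with 609 genes (3.82%) at least 2-fold higher and 10 (0.0627%) at least 2-fold lower. The filter on low counts kept some of the rarest only by their low-RNA sums, such as SOX7 and HSPA6. Genes this rare in cells were tested only where another class was higher, which sets part of this balance. Without the filter, 511 of 25380 genes were at least 2-fold higher and 6 lower. The median of all genes differed by 0.00 on the log2 scale. Genes that rose 2-fold were mostly rare ones, since 552 of the 609 were under 10 CPM in cells, beside 6490 of the 15943 genes tested. Their median span was 13.1 kb against 28.3 kb for all genes tested, and 143 (23.5%) were long non-coding RNAs and 41 (6.73%) pseudogenes, against 9.69% and 1.38% of the genes tested. Without the barcodes above the mitochondrial limit, 3918 of 14743 genes (26.6%) were higher and 4059 (27.5%) lower, 534 and 332 of them by at least 2-fold. That removal uses a measure that itself differs between the classes.

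The mitochondrial genome rose as a whole. All 13 of its protein-coding genes were higher in low-RNA barcodes than in cells, beside 6.64% of all genes. Their median log2 fold change was 2.06, against 0.00 over all genes. COX1, the catalytic subunit of cytochrome c oxidase, stood at 6672 and 4617 CPM in the low-RNA sums of libraries 1 and 2, at 1489 and 1482 CPM in cells and at 3269 and 2905 CPM in empty droplets. Its log2 fold change over cells was 1.87 (SE 0.17, adjusted p = 2.7e-05 by edgeR). ND2, a subunit of complex I, stood at 265 and 204 CPM against 38.4 and 40.9 CPM in cells and 69.5 and 53.7 CPM in empty droplets (log2 fold change 2.51, SE 0.13, adjusted p = 4.4e-07). ND6, encoded on the opposite strand from the other subunits, changed most of the 13, with 141 and 69.5 CPM against 12.3 and 9.42 CPM in cells (log2 fold change 3.21, SE 0.24). For all 3 genes the low-RNA sums lay above cells and empty droplets in both libraries. Against empty droplets 7 of the 13 genes were higher, beside 9.36% of all genes. With the library as a block 12 were, beside 14.4%. COX1 was among those that passed with the block alone (adjusted p = 0.063 and 0.0144 by edgeR). The 2 mitochondrial ribosomal RNAs rose as well, the large one from 68.7 and 63.9 CPM in cells to 526 and 392 CPM and the small one from 77.1 and 64.0 CPM to 496 and 292 CPM. Without the barcodes above the mitochondrial limit, 1 of the 13 genes was higher than in cells and 3 were lower, beside 26.6% and 27.5% of all genes. Against empty droplets 0 were then higher and 12 lower, beside 4.2% and 4.52% of all genes. That setting removes barcodes by this very measure.

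Nuclear-encoded RNAs of the ribosome moved apart. RN18S rose from 640 and 546 CPM in cells to 3134 and 2359 CPM (log2 fold change 2.16, SE 0.17, adjusted p = 9.1e-06 by edgeR), and RN5-8S, the 5.8S ribosomal RNA, from 24.8 and 19.8 CPM to 119 and 121 CPM (2.38, SE 0.13). RN18S lies on an unplaced scaffold of susScr11 from 42905 to 45206 and overlaps LOC110258600 on the other strand. Of 84 ribosomal protein genes, 2 were higher, 0 were lower (6.64% and 3.39% over all genes) and the median log2 fold change was −0.05, with 2 higher and 0 lower also by DESeq2 and at an unadjusted p under 0.05. Without cluster 9 of the low-RNA barcodes 1 was higher. Single barcodes nevertheless ran from 3.49% to 37.0% ribosomal protein UMIs between the 5th and 95th percentile in library 1 and from 5.16% to 37.4% in library 2. Without the barcodes above the mitochondrial limit, 83 of the 84 were higher than in cells, beside 26.6% of all genes. The 72 nuclear-encoded genes of the respiratory chain that were tested showed 0 calls in edgeR and in DESeq2 at a median of −0.04. At an unadjusted p under 0.05, which 4275 of all 15943 genes reached in either direction, 1 was higher and 2 lower. Without the barcodes above the mitochondrial limit 62 respiratory chain genes were higher and 1 lower. The sums of all low-RNA barcodes thus average over the 2 ends of the range described above.

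Several other transcripts rose many-fold. LOC106504325, a long non-coding RNA on chromosome 7 (10796441 to 10905531), stood at 1531 and 846 CPM in low-RNA barcodes, at 170 and 121 CPM in cells and at 280 and 173 CPM in empty droplets (log2 fold change over cells 2.97, SE 0.26, adjusted p = 2.5e-05 by edgeR). Against droplets of more than 100 and fewer than 250 UMIs it turned to −0.69 on the log2 scale (adjusted p = 0.0965 by edgeR). LOC102158335 on an unplaced scaffold stood at 1202 and 1105 CPM against 155 and 136 CPM in cells (2.94, SE 0.13). LOC110257911, annotated on chromosome Y (25271338 to 25273767), stood at 521 and 484 CPM against 71.7 and 62.4 CPM in cells (2.86, SE 0.13). A line of parthenogenetic origin carries no Y chromosome, and whether these UMIs came from a copy elsewhere in the genome was not tested. LRRC43, a leucine-rich repeat gene, stood at 213 and 124 CPM against 25.9 and 19.7 CPM (2.83, SE 0.22), and TEX14 at 390 and 266 CPM against 65.8 and 50.1 CPM (2.44, SE 0.20). Each of these 5 stood higher in cluster 2 than in any other cluster of low-RNA barcodes in both libraries. CRABP1 rose from 144 and 189 CPM in cells to 806 and 960 CPM (2.37, SE 0.20, adjusted p = 1.5e-05). It was the reverse case, at 1441 and 1576 CPM in the barcodes with few long-gene UMIs and 87.6 and 177 CPM in those with many.

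The genes that fell did so by less than 2-fold, apart from the 10 counted above. EIF3A, a subunit of a translation initiation factor, stood at 144 and 155 CPM against 255 and 277 CPM in cells and fell by 0.87 on the log2 scale (SE 0.13, adjusted p = 0.00126 by edgeR). KPNB1, the nuclear import receptor importin beta, stood at 154 and 175 CPM against 267 and 288 CPM and fell by 0.79. NTRK2 stood at 493 and 426 CPM against 823 and 705 CPM and fell by 0.78, and SCD, a fatty acid desaturase, fell by 0.80. CCND2, a cyclin of G1 phase, fell by 0.77, and CENPF, a kinetochore protein, fell by 0.76 from 135 and 146 CPM to 91.6 and 79.9 CPM. In each of these genes both low-RNA sums lay below both sums of cells.

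**Figure D4:**
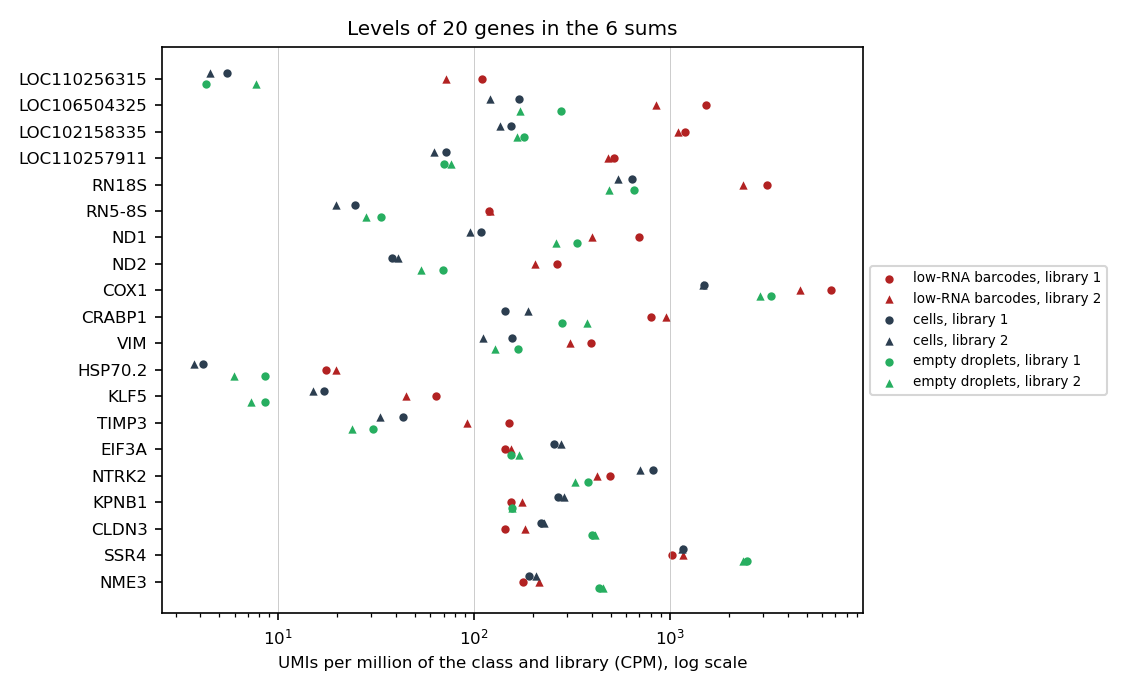
Level of 20 named genes in CPM of each class and library, on a log axis (red for low-RNA barcodes, dark blue for cells, green for empty droplets, circles for library 1 and triangles for library 2). The low-RNA sums lie above cells for the mitochondrial, ribosomal RNA and non-coding genes at the top, below cells for EIF3A, NTRK2 and KPNB1 and below empty droplets for CLDN3, SSR4 and NME3.

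Stress and death genes did not move together, and their counts stand beside 6.64% higher and 3.39% lower over all genes tested. Counts with the library as a block stand beside 15% higher and 12% lower. Of 24 immediate early genes tested, KLF4, SOCS3 and EGR3 were higher than in cells and ZFP36 was lower, at a list median of −0.05. Without cluster 9, 2 of them were higher and 2 lower. KLF4, a pluripotency and epithelial factor, stood at 21.7 and 16.6 CPM against 5.69 and 5.86 CPM (log2 fold change 1.68, SE 0.14, adjusted p = 1.3e-05 by edgeR). Of 19 heat shock genes, HSP70.2, HSPA6, HSPA2, CRYAB and DNAJB1 rose, and HSPD1, HSPH1, HSPA4 and HSPA9 fell. The filter on low counts kept HSPA6 by its low-RNA sums alone, so its call is no support for the list. CRYAB had 61.6% of its low-RNA UMIs in the 122 barcodes of cluster 9, without which 4 of the list rose. HSP70.2 went from 4.13 and 3.72 CPM to 17.7 and 19.7 CPM (2.21, SE 0.15), whereas HSPD1, a mitochondrial matrix chaperone, went from 384 and 389 CPM to 271 and 295 CPM. Of 22 genes of the integrated and endoplasmic reticulum stress responses, DDIT3, ERN1 and CEBPB rose and SLC7A11 and PDIA4 fell, with DDIT3 at 66.8 and 54.3 CPM against 34.5 and 32.8 CPM (0.80, SE 0.11). Of 31 apoptosis genes and p53 targets, CDKN1A rose (0.40, SE 0.11) and GADD45A, ZMAT3 and CCNG1 fell, and of 18 oxidative stress genes 4 fell, TXNRD1 by 0.69. With the library as a block the falls numbered 6 in the integrated and endoplasmic reticulum stress list, 7 among apoptosis genes, where 2 rose, and 6 among oxidative stress genes. Without the barcodes above the mitochondrial limit the counts were 12 higher and 3 lower heat shock genes, 7 and 4 of the integrated and endoplasmic reticulum stress list, 14 and 7 apoptosis genes and 10 and 3 oxidative stress genes, where 26.6% of all genes were higher and 27.5% lower. Of 20 S phase and 20 G2 and M phase genes, 3 and 5 fell, among them TOP2A, the topoisomerase of dividing cells, at 132 and 127 CPM against 185 and 190 CPM. Under the block 1 S phase and 2 G2 and M phase genes rose and 6 and 7 fell. Without the barcodes above the mitochondrial limit, 11 S phase and 12 G2 and M phase genes were higher than in cells and 4 and 7 were lower, beside the same 26.6% and 27.5%. With total UMIs as the scaling, which called 5.4% of all genes higher and 1.67% lower, 1 S phase gene and 2 G2 and M phase genes fell. With this scaling 0 genes of the integrated and endoplasmic reticulum stress list and 0 immediate early genes fell, so the falls of SLC7A11, PDIA4 and ZFP36 were lost, and 0 apoptosis genes rose, so the rise of CDKN1A was lost.

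Against empty droplets, the sums of all low-RNA barcodes had less of many short, abundant mRNAs and more of long-gene RNA. At an adjusted p under 0.05, 1493 genes (9.36%) were higher in low-RNA barcodes and 2008 (12.6%) lower, of which 518 (3.25%) and 436 (2.73%) by at least 2-fold. Fitted with the library as a block, 2297 (14.4%) were higher and 2671 (16.8%) lower. With 1 sum left out the rises ran from 26 to 2842 and the falls from 151 to 2866, lowest without empty droplets of library 2 and highest without low-RNA barcodes of library 2. This balance depends on the scaling. TMM scaling puts the median gene at 0.06 on the log2 scale and scaling by total UMIs at 0.47, and with total UMIs 4681 genes were higher and 790 lower, 1986 and 58 of them by at least 2-fold. The 518 genes at least 2-fold higher had a median span of 54.7 kb and 185 (35.9%) spanned 100 kb or more, against 28.3 kb and 19.1% of the genes tested. The 436 at least 2-fold lower had a median span of 4.73 kb and 4 (0.917%) were that long. Of the ribosomal protein genes 65 of 84 were lower (median −0.64) and of the respiratory chain genes 49 of 72 (median −0.65), and with total UMIs 41 and 28 were. Without the barcodes above the mitochondrial limit most of this difference was gone. The ribosomal protein genes were then 20 higher and 24 lower (median −0.03) and the respiratory chain genes 7 higher and 18 lower (median −0.06), beside 4.2% higher and 4.52% lower over all genes. The count of 2-fold genes also rested on library 2 of the empty droplets, at 26 higher and 133 lower without it, and on the barcodes above the mitochondrial limit, at 154 higher and 65 lower without them.

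Among the 15 genes that stood furthest below empty droplets, BOLA2B was the first and CLDN3 the second. CLDN3, a tight junction protein, stood at 144 and 183 CPM in low-RNA barcodes, at 220 and 228 CPM in cells and at 400 and 417 CPM in empty droplets (log2 fold change against empty droplets −1.71, SE 0.16, adjusted p = 0.00017 by edgeR). WFDC2 stood at 99.1 and 114 CPM against 250 and 240 CPM (−1.60, SE 0.14), and UPTI, a secreted trypsin inhibitor, at 699 and 750 CPM against 1572 and 1540 CPM (−1.50, SE 0.14). SSR4, a subunit of the translocon complex, stood at 1028 and 1164 CPM against 2467 and 2364 CPM (−1.54, SE 0.15), and NME3, a nucleoside diphosphate kinase, at 178 and 215 CPM against 437 and 458 CPM (−1.58, SE 0.15). APOA1, the apolipoprotein of high-density lipoprotein and a marker on the HYPO list, stood at 124 and 162 CPM against 307 and 314 CPM. For all 6 genes the empty droplets were the highest of the 3 classes in both libraries. Among the genes that stood above empty droplets, KLF5 had 64.1 and 44.9 CPM against 8.54 and 7.25 CPM (log2 fold change 2.39, SE 0.25, adjusted p = 0.00022). TIMP3 had 151 and 91.7 CPM against 30.5 and 23.9 CPM (1.76, SE 0.25), TOB1 89.5 and 59.6 CPM against 18.3 and 14.5 CPM (1.79, SE 0.24) and CDH11, a mesenchymal cadherin, 112 and 65.0 CPM against 24.4 and 18.8 CPM (1.64, SE 0.26). All 4 of these rose over cells as well, by 1.70, 1.60, 1.19 and 1.14 on the log2 scale. RN18S stood above empty droplets of 10 to 100 UMIs by 1.86 on the log2 scale but below droplets of more than 100 and fewer than 250 UMIs by 0.75, a comparison that was added after the data were seen.

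Genes outside both other classes, at least 2-fold higher or lower than cells and than empty droplets with an adjusted p under 0.05 in each, numbered 175 higher (1.1% of the genes tested) and 6 lower (0.0376%). The 2 comparisons share the low-RNA sums, so the overlap itself was not tested. The lower ones were CCL2, SAA3, CCL1, SYT4, MYL3 and LOC100736765. CCL2, a chemokine, was counted 11 times in 11 low-RNA barcodes and 1236 times in 243 cells. Such raw counts do not compare levels, since low-RNA barcodes held 4.15% and 4.26% of all UMIs and cells 87.8% and 87.7%. Among the higher ones, CLDN5, a tight junction protein known from endothelium, was counted 82 times in 56 low-RNA barcodes and 69 times in 62 cells, against 1 UMI in empty droplets. It stood at 3.0 and 3.57 CPM in low-RNA barcodes and at 0.114 and 0.151 CPM in cells. It stood at 26.2 and 41.5 CPM in cluster 2 and at no more than 0.688 CPM in any other cluster of low-RNA barcodes. Of the 7 endothelial genes tested, 3 were higher than in cells, CLDN5, VWF and KDR, beside 6.64% of all genes. By DESeq2 and with total UMIs as the scaling 2 were. The filter on low counts kept CLDN5 and VWF by their low-RNA sums alone, with VWF at 0.449 and 0.351 CPM in cells. Their calls are thus no support for the list. KDR, a receptor of vascular endothelial growth factor, stood at 10.2 and 8.46 CPM against 6.44 and 5.02 CPM in cells (log2 fold change 0.65, SE 0.18, adjusted p = 0.0385 by edgeR), while PECAM1 stood at 1.92 and 1.4 CPM against 1.94 and 1.99 CPM (adjusted p = 0.496). CDH5, the cadherin of endothelial junctions, was counted 1 time among all low-RNA barcodes, and the endothelial list summed to 73.1 and 68.4 CPM in low-RNA barcodes, 52.6 and 48.8 CPM in cells and 64.0 and 70.8 CPM in empty droplets. HSPA6 was counted 86 times in 67 low-RNA barcodes against 207 times in 191 cells (3.75 and 3.18 CPM against 0.409 and 0.389 CPM). SOX7, an endoderm and vascular factor, was counted 48 times in 34 against 85 times in 80 (1.83 and 2.02 CPM against 0.134 and 0.192 CPM). The filter on low counts kept both by their low-RNA sums alone. Genes this sparse rest on few UMIs in the empty droplets, and no fold against them is given. Without library 2 of the empty droplets 22 genes were called outside both classes and without library 1 of them 64, while 315 were without library 2 of the low-RNA barcodes. With total UMIs as the scaling the count was 292 higher and 3 lower, and without the barcodes above the mitochondrial limit 104 higher and 7 lower.

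A part of these genes traced to 122 barcodes. Cluster 9 of the low-RNA barcodes (63 in library 1 and 59 in library 2, 1.80% of the barcodes and 2.2% of their UMIs) was led by pseudogenes. LOC110256315, a pseudogene on chromosome 13 (89759589 to 89762733), stood at 4013 and 3621 CPM there. Over all low-RNA barcodes it had 110 and 71.7 CPM against 5.48 and 4.51 CPM in cells. Without cluster 9, which it leads, its log2 fold change against empty droplets was −0.61 (adjusted p = 0.716 by edgeR). Of the 175 genes higher than both other classes, 36 had most of their low-RNA UMIs in this cluster and 18 had more than 90% of them there, among them NFIX, a nuclear factor, and RPL10L, a ribosomal protein retrogene, at 93.4% and 90.7%. Without the cluster, 126 of the 175 remained called. Its 5 leading genes together reached 10 UMIs in 60 of 63 and 51 of 59 of its barcodes, in 0 and 13 of the other low-RNA barcodes, and in 42 of 246 and 41 of 277 cells of the cell cluster that is led by the same pseudogene. In the rest of the cells they did so in 2 and 7.

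Cluster 9 carried mesenchymal genes unevenly. COL1A1 stood at 808 CPM against 71.5 CPM in the other low-RNA barcodes, TIMP2 at 2422 against 82.8 CPM, VIM at 2004 against 313 CPM and S100A4 at 508 against 7.11 CPM. DCN, by contrast, stood at 9.14 against 52.0 CPM, LUM at 5.48 against 26.6 CPM and COL1A2 at 91.4 against 110 CPM. The mesenchyme list summed to 4197 CPM in cluster 9, to 8271 CPM in cluster 7 and to 4731 CPM in the cardiac-like cluster 5. Mouse embryonic fibroblasts were the feeder layer of the pESCs, the counts were made on the pig genome alone, and whether any of these barcodes came from feeder cells was not tested.

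Of SOX2, POU5F1, GATA6, GATA4, GATA3 and GATA2, by which the study marked its cells, GATA3 alone passed the test against cells without the block. SOX2, an epiblast (EPI) factor, had 35.3 and 46.5 CPM in low-RNA barcodes, 28.8 and 38.3 CPM in cells and 9.15 and 17.9 CPM in empty droplets, and POU5F1 had 65.9 and 115 CPM, 63.3 and 95.9 CPM and 54.9 and 97.3 CPM. GATA6 and GATA4, factors of the hypoblast (HYPO), had 35.5 and 20.1 CPM and 21.2 and 8.69 CPM in low-RNA barcodes against 22.9 and 15.0 CPM and 13.6 and 6.30 CPM in cells. None of these 4 passed the test against cells in edgeR, with adjusted p from 0.17 to 0.76. With the library as a block GATA6 and GATA4 passed (adjusted p = 3.4e-05 and 0.00029), while SOX2 and POU5F1 did not (0.0514 and 0.401). GATA3, a factor of the trophectoderm (TE), had 98.2 and 97.2 CPM against 132 and 124 CPM in cells and fell by 0.43 on the log2 scale (SE 0.11, adjusted p = 0.0271), while GATA2 had 53.9 and 56.5 CPM against 63.9 and 61.3 CPM and did not pass (adjusted p = 0.22). Over the lists, beside 6.64% higher and 3.39% lower over all genes, 2 of 12 EPI genes rose and 1 fell, 1 of 9 HYPO genes rose and 3 of 13 TE genes fell, TFAP2A and SFN beside GATA3. By DESeq2 the calls were 0 for EPI and HYPO and 4 falls for TE. An unadjusted p under 0.05 was reached by 4275 of all 15943 genes, in either direction. At that threshold 2 EPI genes were higher and 1 lower, 3 HYPO genes were higher and 1 lower and 1 TE gene was higher and 6 lower. Under the block, where 15% of all genes rose and 12% fell, 2 EPI genes rose and 3 fell, 5 HYPO genes rose and 1 fell and 2 TE genes rose and 4 fell. With total UMIs as the scaling 1 EPI gene and 0 HYPO genes rose and 4 TE genes fell. Without the barcodes above the mitochondrial limit, 6 TE genes were higher and 3 lower, and the list median turned from −0.22 to 0.15. In that setting 1 EPI gene was higher and 3 lower and 1 HYPO gene was higher and 0 lower, beside 26.6% and 27.5% of all genes. Within the low-RNA barcodes the genes split by kind. POU5F1 stood at 403 and 504 CPM in cluster 4 and SOX2 at 107 and 98.2 CPM there, against 7.06 and 16 CPM and 3.03 and 1.77 CPM in cluster 7. SOX2 was not particular to cluster 4, with 112 and 103 CPM in the neural-like cluster 3 and 81.0 and 120 CPM in cluster 8. GATA6 stood at 272 and 238 CPM in cluster 7, which was led by CACNA1D, and at 67.5 and 69.7 CPM in the cardiac-like cluster 5, while GATA4 stood at 201 and 130 CPM and 44.6 and 45.3 CPM there.

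Lists for cells outside the 3 blastocyst lineages differed among themselves, beside 6.64% higher and 3.39% lower over all genes tested. Counts with the library as a block stand beside 15% higher and 12% lower. Of 12 neural genes 6 rose against cells (median log2 fold change 0.87), namely CRABP1, LHX2, FEZF1, SOX1, SOX3 and ZIC1. LHX2 stood at 45.9 and 53 CPM against 15.2 and 18.5 CPM in cells (1.51, SE 0.14, adjusted p = 2.8e-05). Of 12 mesenchyme genes COL1A1, PRRX1, VIM and DCN rose (median 0.73), and with the library as a block 11 rose. VIM, the intermediate filament of mesenchymal cells, stood at 396 and 308 CPM against 156 and 111 CPM (1.35, SE 0.17). Of 8 neural crest genes 5 rose and ERBB3 fell (median 1.04), with ZEB2 at 47.1 and 33.8 CPM against 20.0 and 19.1 CPM. Of 10 cardiac genes 0 passed in edgeR and in DESeq2, at a median of −0.30. At an unadjusted p under 0.05, which 4275 of all 15943 genes reached in either direction, 2 cardiac genes were lower. With the library as a block 1 rose and 3 fell. Of 11 interferon-response genes IRF1 rose and IFI6 fell (adjusted p = 0.00063 and 0.0456 by edgeR). With the block 3 rose and 2 fell, while the fall of IFI6 was lost with DESeq2's size factors, with total UMIs and without cluster 9. With total UMIs 4 neural and 3 mesenchyme genes rose. Red blood cell markers summed to 2.0 and 1.2 CPM and immune markers to 10.5 and 6.8 CPM, against 0.9 and 1.2 CPM and 8.1 and 7.2 CPM in cells. In a sum over barcodes, more barcodes of a kind and more RNA of that kind per barcode cannot be told apart.

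To compare the mix of kinds barcode by barcode, the cells were clustered, and each low-RNA barcode was given to the cell cluster whose profile, mixed with free RNA, made its counts most likely. Cells thinned to the depths of low-RNA barcodes went through the same step, and 83.1% in each library returned to their own cluster. With all genes, 42.2% and 49.9% of the low-RNA barcodes went to cell cluster 9, a neural-crest-like group led by SCRG1, CRABP1 and NPY, against 3.69% and 4.18% of the thinned cells. The name of that group of 404 cells goes by its leading genes. POU5F1 was counted in 52.0% and SOX2 in 42.3% of its cells, so an assignment to it is not read as a lineage. Its median mitochondrial share was 0.0853% against 0.579% over all cells. The group had itself a low long-gene share, a median of 3.49% against 13.8% over all cells, a ribosomal protein share of 28.5% and a median of 15477 UMIs. It held 302 of the 378 cells with less than 5% long-gene UMIs. After this was seen, the assignment was repeated with the 17399 genes shorter than 20 kb that are neither mitochondrial nor ribosomal and without that cell cluster. Thinned cells then returned to their own cluster in 80.2% and 79.7%.

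On these genes the low-RNA barcodes covered all 12 remaining cell clusters, in other proportions than cells. The cells led by CRABP1 and LHX2, a neural-like cluster, received 13.8% (95% Wilson interval 12.6 to 15.1) and 15.0% (13.9 to 16.2) of low-RNA barcodes against 3.69% and 5.75% of thinned cells, 3.74 and 2.60 times as many. The cells led by ERAS and DNMT3B, an EPI-like cluster, received 12.8% and 19.5% against 8.77% and 13.1%, and the mesenchyme-like cells led by COL3A1 and DCN 16.3% and 8.34% against 9.20% and 6.5%. The cells led by SOD3, the cluster with the most cells, received 13.4% (12.3 to 14.7) and 13.6% (12.5 to 14.8) against 26.7% and 23.4%. The interferon-response cells led by ISG15 received 1.90% and 2.08% against 4.22% and 3.82%, and those led by FXYD4 and DEFB1 8.24% and 10.1% against 6.32% and 7.38%. The direction was the same in both libraries for each of these 6 clusters. With all genes the CRABP1 cluster received 10.2% and 6.81% against 3.98% and 5.85%, 2.56 and 1.16 times as many. With cell cluster 9 kept but without mitochondrial, ribosomal protein and long genes it received 9.24% and 7.46% against 3.53% and 5.48%. The size of its excess thus depended on the genes and profiles used. The direction turned with all genes for the EPI-like cluster (4.73% and 6.29% against 7.25% and 10.7%), for the FXYD4 cluster (6.18% and 8.01% against 7.55% and 8.81%) and, in library 2, for the mesenchyme-like cluster (5.66% against 6.32%), where cell cluster 9 took the largest share. The intervals cover counting error only, and with 2 libraries no test between classes was made. The distance between the mixes is the share of barcodes that would have to change cluster to match the thinned cells. It was 46.5% with all genes and 22.6% with the short genes and without cell cluster 9, which changed both the genes and the profiles. With cell cluster 9 kept but without mitochondrial, ribosomal protein and long genes it was 39.7%.

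**Figure D5:**
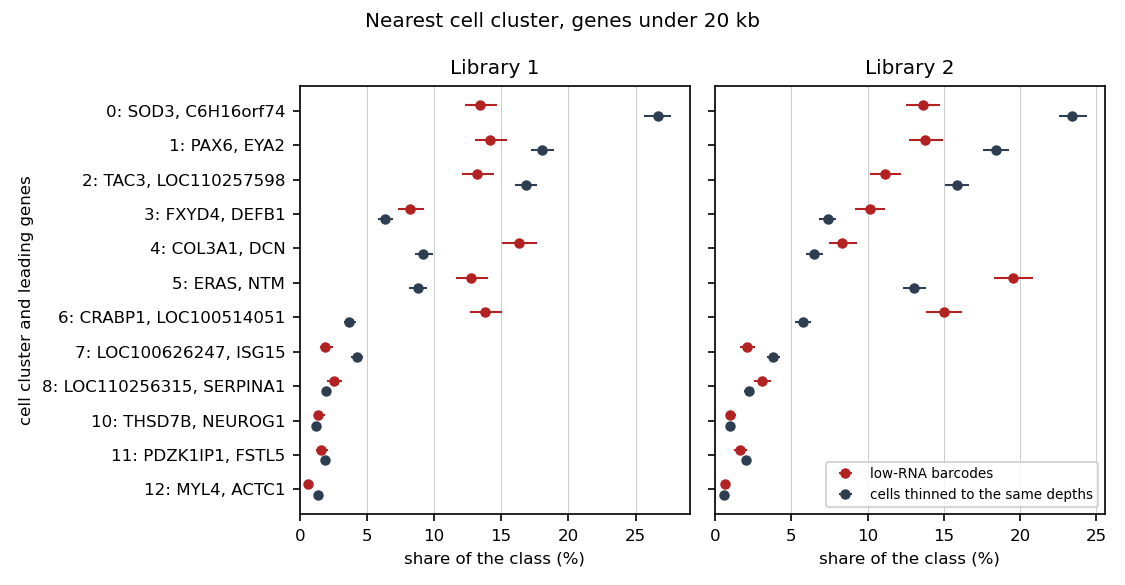
Share of low-RNA barcodes (red) and of cells thinned to the same depths (dark blue) that were given to each cell cluster, by genes shorter than 20 kb without mitochondrial and ribosomal protein genes and without cell cluster 9. Bars are 95% Wilson intervals of the counts. The red points lie right of the blue ones for the CRABP1 cluster in both libraries and left of them for the SOD3 cluster.

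The fit with all genes and all cell clusters gave the part of each barcode that looked like free RNA, in steps of 5%. Its mean was 23.6% and 18.6% in low-RNA barcodes and 10.3% and 9.89% in thinned cells, and its median was 15% and 5% against 0% and 0%. A part of 50% or more was found in 20.3% and 14.0% of low-RNA barcodes and in 2.99% and 2.59% of thinned cells. At the other end, 36.9% and 39.8% of low-RNA barcodes had a part of 0%. The kinds differed in this, with a median of 60% in the DEFB1-led cluster 6, 45% in the ISG15-led cluster 10 and 30% in the SOD3-led cluster 0 and the cardiac-like cluster 5. The median was 15% in cluster 2 and 0% in the neural-like cluster 3, the ERAS-led cluster 4 and the 3 clusters rich in long-gene UMIs. Thinned cells set the level this fit reaches for barcodes above the threshold, and the part is an estimate that depends on the cell profiles it is given. Cell cluster 9 was given to 94.2% of cluster 3, 94.9% of cluster 4 and 92.7% of cluster 0. Cluster 6 went most often (48.1%) to the cells led by TAC3, with a long-gene median of 14.1% against 3.49% in cell cluster 9. Between kinds given different profiles, the free-RNA part and the profile cannot be told apart.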

How the data were processed

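The data are single-cell RNA-seq of day 6 porcine blastoids in 2 libraries. After quality control in Dr.seq2 the authors ran Cell Ranger against susScr11. The deposited files hold the raw counts of UMIs for all barcodes and genes, with no cells called. Whether intronic reads were counted is not given in the sources used here, nor is the version of the 10x chemistry. Intron counting would add to the counts of long genes. The submitters' processing notes name Cell Ranger 7.1.0 and Seurat 4.3.0. The bulk FPKM values of the pESCs were not used. Of 30029 gene names in the count files, 29862 (99.4%) had a span in RefSeq's gene table of Sscrofa11.1 (susScr11), the longest annotated locus of the symbol.

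The members, gene lists and tests were chosen with earlier results of these data known. The UMI limits of the cells come from an order-of-magnitude rule applied per library in that earlier work. Doublets were not removed, and members above the mitochondrial limit were kept unless stated. UMIs were summed per library over low-RNA barcodes (12003788 and 12886070 UMIs), cells (254038630 and 264987746) and empty droplets (1639823 and 2344239), so that values in empty droplets are the least precise. The 6 sums were filtered with filterByExpr, scaled by TMM and passed to edgeR 4.0.16 in R 4.3.3 (quasi-likelihood test). A gene was called at an adjusted p under 0.05, and 2-fold calls also needed a fold change of 2. CPM values are per 1000000 UMIs of the sum, while fold changes are on the TMM scale, with factors of 1.16 and 1.06 for low-RNA barcodes, 1.08 and 1.07 for cells and 0.852 and 0.825 for empty droplets. Sums of the same library are paired by their origin: their deviations from the class means correlated at 0.471 between low-RNA barcodes and cells, 0.0698 between low-RNA barcodes and empty droplets and 0.139 between cells and empty droplets over 15943 genes. The alternatives include the library as a block in the same fit and DESeq2 1.42.0.

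Clusters were made in scanpy 1.11.5 from log-normalized counts, 2000 variable genes, 30 principal components centred per library, 30 neighbours and Leiden resolution 0.5. For cells, 18 lineage genes were left out of the clustering. A cluster was named only with at least 3 fixed markers among its 10 leading genes. Each low-RNA barcode was given to the cell profile of highest multinomial likelihood, mixed with the free-RNA profile of its library. Named genes were the 15 with the largest rise and the 15 with the largest fall per comparison among called genes of at least 50 CPM in either class with the same direction in both libraries, up to 20 each way outside both classes, and members of the lists. The genes given by cluster, the long-gene range and cluster 9 were chosen after their values were seen. Of the tested genes, edgeR called 0 of 4 on the primitive streak list and 1 of 5 on the surface ectoderm list against cells. It called 3 of 9 on the sensory neuron and 4 of 10 on the amnion list, where 6.64% of all genes were higher and 3.39% lower. For the primitive streak 1 was higher at an unadjusted p under 0.05, beside 4275 of all 15943 genes in either direction, and 0 in DESeq2. With total UMIs as the scaling 1 sensory neuron gene was higher, and 1 amnion gene was higher and 1 lower. The cytoskeleton list had 0 of 22 called in edgeR (1 higher and 1 lower at an unadjusted p under 0.05, 1 higher in DESeq2). Without the barcodes above the mitochondrial limit 21 of them were higher, beside 26.6% of all genes. Of nuclear-retained RNAs only MEG3 was tested.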

Additional observations from a re-analysis of the deposited data

How the results depend on the processing

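Of the settings applied to single named genes, 2077 kept direction and call, 142 kept the direction only and 9 turned it. Without cluster 9 of the low-RNA barcodes, LOC110260659 turned to −0.15 against cells and −0.73 against empty droplets on the log2 scale, and LOC100154020, LOC100518843, LOC100737553 and LOC110256315 turned against empty droplets to −0.45, −0.44, −0.41 and −0.61, with adjusted p from 0.0723 to 0.821 by edgeR for these values. With droplets of more than 100 and fewer than 250 UMIs as the empty ones, LOC106504325, RN18S and the small mitochondrial ribosomal RNA turned to −0.69, −0.75 and −1.47 (adjusted p = 0.0965, 0.0233 and 0.00835). The cause was not tested, beyond the removal of the cluster that held these pseudogenes.

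The number of genes changed at least 2-fold was 619 against cells (404 to 844 when 1 of the 6 sums was left out, lowest without cells of library 2), 954 against empty droplets (159 to 1766) and 181 against both (22 to 315). The extremes of the last 2 were without empty droplets of library 2 and without low-RNA barcodes of library 2. A sum left alone in its class is assumed to vary like the others. Scaling by total UMIs gave 2044 and 295 for the last 2 counts, and leaving out low-RNA barcodes above the mitochondrial limit gave 219 and 111. With the library as a replicate block the 3 counts were 775, 1195 and 242, against 627, 897 and 149 with DESeq2, all within 1.5 times. Of the single named genes 108 kept their call with the block, and it moved list counts. Beside those given with their lists, it gave 4 higher and 2 lower immediate early genes, 5 and 5 heat shock, 7 and 0 neural, 6 and 1 neural crest, 4 and 0 sensory neuron, 4 and 0 endothelial, 1 and 2 respiratory chain, 0 and 3 surface ectoderm, 2 and 3 amnion, 1 and 0 primitive streak, 1 and 0 immune and 0 and 1 cytoskeleton genes against cells. Over all genes the block called 15% higher and 12% lower than in cells. Against empty droplets the block raised the rises among mesenchyme genes from 4 to 10 and among neural genes from 3 to 7, and the falls among cardiac genes from 1 to 6. There it took the share of all genes from 9.36% to 14.4% higher and from 12.6% to 16.8% lower. The other planned settings gave 517 to 671, 718 to 1160 and 122 to 255.

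The mitochondrial share was 2.45% (1.92% to 2.97% by library), 2.64% and 2.27% with lower limits of 500 and 2000 UMIs and 3.14% with the upper limit at 0.5 of the threshold, but 0.636% as a median over barcodes. The distance between the mixes was 46.5% (46.4% to 46.7% by library), 49.2% at Leiden resolution 1.0, 48.1% without a free-RNA part, 44.0% from 2000 UMIs, 39.7% without mitochondrial, ribosomal protein and long genes and 22.6% with genes under 20 kb and without cell cluster 9. The mean free-RNA part was 21.1% (18.6% to 23.6%) and 16.5% without mitochondrial, ribosomal protein and long genes. Settings that were added after the data were seen are total UMIs, the larger droplets, both removals of low-RNA barcodes and the fits on chosen genes. Depth limits the empty droplets most, whose sums hold 1639823 and 2344239 UMIs.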
